A study of Mus musculus with 4 samples.

Results

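The genes described here are 10 genes that carry out or tune the nuclear response to Notch, read in single-nucleus RNA sequencing of mouse lung. They are the target genes Hes1, Hey1, Hey2, Heyl and Nrarp, the transcriptional cofactors Rbpj, Maml2 and Maml3, and the fringe glycosyltransferases Lfng and Mfng. The 10 were chosen by symbol from the 32285 genes listed in each library, and all 10 symbols were found. Nuclei came from the lungs of 2 wild-type (WT) mice and 2 transgenic (Tg) mice, all of the C57/BL6J strain and labelled as 8-9 weeks old. The Tg mice carried a dominant-negative form of the telomere-binding protein TRF2 (VEcad-TRF2DN-Tg), driven in endothelial cells (ECs) by the vascular endothelial cadherin promoter. Per the study's methods, mice of both genotypes had been kept in hypoxia at 10% O2 for 3 weeks, so no normoxic lung is compared here, and whether the labelled age is that before or after hypoxia is not stated. Each mouse gave 1 library, and the mice are written WT1, WT2, Tg1 and Tg2.

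Notch is a receptor that is cut when a ligand on a neighbouring cell binds it. Its released intracellular part enters the nucleus, where it joins the DNA-binding protein RBPJ and a Mastermind coactivator of the MAML family, and the complex turns on repressors of the HES and HEY families and the feedback inhibitor NRARP. Without the intracellular part, RBPJ can hold corepressors on the same sites. Fringe enzymes add sugars to the receptor and change which ligands it answers to. In the lung, Notch signalling is known for its part in arterial identity of ECs, in the mural cells around vessels and in the choice between secretory and ciliated cells of the airway epithelium.

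The libraries held 125261739 (WT1), 146133943 (WT2), 128645180 (Tg1) and 182014706 (Tg2) UMIs, counts of single RNA molecules. Barcodes with 1500 or more UMIs numbered between 25269 and 44000 per mouse, and between 3248 and 8968 of them were given to a class by an excess of marker UMIs. Class names below were rebuilt from markers and are not the study's annotation. The share of barcodes that received a class was 12.1% in WT1, 11.1% in WT2, 31.4% in Tg1 and 20.4% in Tg2. Of the 12 endothelial markers, 12 were detected and 11 were highest in the EC-like class. Of the 12 pericyte markers, 12 were detected and 9 were highest in the pericyte-like class. Between 94 and 485 barcodes per mouse carried markers of a further class and were left out as possible doublets. Between 10.6% and 15.8% of named nuclei lay near the cut of the marker test, and any pair of mice shared between 176 and 475 barcode sequences. Terf2 was read at 53.6, 53.3, 51.2 and 53.2 UMIs per 1000000 UMIs (CPM) in the EC-like nuclei of WT1, WT2, Tg1 and Tg2, and whether transgene reads are counted under this symbol is not known, so it checks no label.

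Levels below are CPM of the UMIs summed per mouse and class. Droplets without a nucleus also hold RNA that leaked from broken cells, so the members were set beside barcodes with 300 to 800 UMIs in the same mouse, called empty droplets. That these barcodes hold no nucleus is taken from their UMI number and was not tested. This free RNA was estimated to make up 51.2% (WT1), 52.6% (WT2), 63.4% (Tg1) and 64.7% (Tg2) of the EC-like sums. A level in a class can mean more nuclei with the RNA or more RNA in each, and sums do not separate these. Comparisons were made with edgeR's quasi-likelihood test on sums of mice, with Benjamini-Hochberg adjustment over all genes tested and a threshold of 0.05. Of 19 classes, 15 had at least 5 nuclei in every mouse and were compared, together with 4 subclasses of EC-like nuclei.

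In the chromatin of target genes the Notch complex sits on a short word, GTGGGAA or its reverse complement TTCCCAC, and the windows below show which members have it just before their start. RefSeq promoter windows (GRCm38.p6), cut to the 250 bases before the transcription start, were at hand for 6 members. Hey2 and Lfng held the word and Nrarp, Rbpj, Maml2 and Maml3 did not, so it stood in 2 of the 8 windows of these members, beside 5.42% of all 32851 windows. It lay 207 to 201 bases before the start of Hey2 and 109 to 103 bases before that of Lfng. The windows of Hey2 and Lfng and, for contrast, that of the target Nrarp follow, 5' to 3' on the strand of the gene, with the word in capitals where it occurs:
Hey2 (chr10:30842784-30843033, minus strand): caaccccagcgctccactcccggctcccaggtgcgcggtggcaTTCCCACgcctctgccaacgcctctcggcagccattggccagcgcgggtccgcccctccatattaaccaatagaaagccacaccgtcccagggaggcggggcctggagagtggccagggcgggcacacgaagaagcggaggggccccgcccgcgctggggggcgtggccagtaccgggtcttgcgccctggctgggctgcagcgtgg
Lfng (chr5:140607091-140607340, plus strand): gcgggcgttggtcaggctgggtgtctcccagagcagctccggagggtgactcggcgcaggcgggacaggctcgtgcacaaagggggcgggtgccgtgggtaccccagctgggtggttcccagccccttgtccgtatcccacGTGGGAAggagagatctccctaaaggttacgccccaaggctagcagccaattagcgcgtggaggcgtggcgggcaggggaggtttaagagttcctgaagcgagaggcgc
Nrarp (chr2:25180508-25180757, plus strand): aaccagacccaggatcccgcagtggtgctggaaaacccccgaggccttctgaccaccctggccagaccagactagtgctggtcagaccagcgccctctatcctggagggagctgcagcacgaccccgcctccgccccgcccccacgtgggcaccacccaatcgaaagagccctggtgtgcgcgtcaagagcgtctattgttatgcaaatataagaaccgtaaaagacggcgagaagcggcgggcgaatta
In both Hey2 and Lfng the word was preceded by C on its own strand, and this longer form, CGTGGGAA, stood in 0.636% of all windows. A shorter core, TGGGAA, was found in 6 of the 8 windows, beside 21.6% of all windows. A match in these windows is a description of letters and was not tied to binding.

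Where the members stood out was asked first, by comparing each class with the mean of the others. Over the 15 classes, 135 pairs of member and class were tested, and 28 were higher and 30 lower, beside 14.7% higher and 11.9% lower among all genes tested. Hey1 did not pass the filter on low counts in this test and was examined without it. Gene positions below are those of GENCODE M21 on GRCm38, which held all 10 gene identifiers. Nrarp and Rbpj overlap annotated genes on the opposite strand only. Of the genes that overlap Maml2 and Maml3, 4 and 11 lie on the same strand, so reads that fall in both are uncertain there.

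Among the targets, Hes1, a basic helix-loop-helix repressor (chromosome 16, 30064384 to 30067796, plus strand), was highest in club-like nuclei, secretory cells of the airway. It was read there at 109, 123, 366 and 192.5 CPM in WT1, WT2, Tg1 and Tg2. The difference from the other classes was 1.51 ± 0.07 on the log2 scale (SE, n = 4 mice, edgeR adjusted p = 3.9e-27). AT1-like (0.56) and ciliated-like (0.38) nuclei were also higher, and AT2-like, mesothelial-like and alveolar macrophage-like nuclei were lower. EC-like nuclei held 59.4, 54.1, 114 and 93.3 CPM and pericyte-like nuclei 54.9, 45.4, 99.9 and 82.6 CPM, and neither class passed the test against the others (edgeR adjusted p = 0.47 and 0.91). Empty droplets held 157, 125, 217 and 221 CPM, and in 14 of the 15 classes the nuclei of each mouse lay below its own empty droplets, with club-like nuclei of Tg1 the one sum above them. Against the empty droplets Hes1 was lower in those 14 classes, by -1.20 ± 0.13 in EC-like nuclei (edgeR adjusted p = 2.1e-05), and club-like nuclei did not differ past the threshold (0.09, edgeR adjusted p = 0.68). With barcodes of 50 to 200 UMIs as empty droplets, which held 0, 0, 2 and 2 Hes1 UMIs in all, the sign turned in EC-like nuclei (0.96).

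Hey1, a HEY repressor (chromosome 3, 8663359 to 8667256, minus strand) known from the Notch response of endothelium, was read at 16.1, 9.72, 12.1 and 7.52 CPM in EC-like nuclei. All 4 mice lay above their own empty droplets, at 8.82, 6.58, 6.67 and 7.18 CPM, by 0.62 ± 0.21 on the log2 scale (edgeR adjusted p = 0.024). No other of the 15 classes had a mean above the empty droplets, the next being lymphatic EC-like nuclei with 6 UMIs in all. Tested without the filter, an alternative chosen after seeing the data, Hey1 was higher in EC-like nuclei than in the others by 2.18 ± 0.24 (edgeR adjusted p = 1.6e-17). Ciliated-like nuclei were also higher in that test (0.93 ± 0.32, edgeR adjusted p = 0.014), with each mouse below its own empty droplets.

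Hey2, a HEY repressor known from arterial endothelium (chromosome 10, 30832359 to 30842801, minus strand), was highest in pericyte-like nuclei, the mural cells of capillaries, at 0, 20.2, 10.5 and 16.5 CPM, which rest on 13 UMIs. WT1, at 0 of 127543 UMIs, was the mouse without any, and a count of 0 there allows up to 23.5 CPM by the floor of 3 counts. The class exceeded the others by 3.05 ± 0.57 (edgeR adjusted p = 5.4e-05), and EC-like and club-like nuclei exceeded them by 1.66 ± 0.31 and 1.34 ± 0.37. Hey2 passed the filter on low counts in this test mainly through pericyte-like sums, so a higher call of that class was favoured. Against empty droplets, EC-like nuclei differed by 0.80 (edgeR adjusted p = 0.092) and pericyte-like nuclei, without the filter, by 1.75 (edgeR adjusted p = 0.057).

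Heyl, a HEY family member known from vascular mural cells (chromosome 4, 123233556 to 123249875, plus strand), showed the sharpest separation from free RNA among the targets. Pericyte-like nuclei held 31.4, 15.1, 15.8 and 33.0 CPM, from 4, 3, 3 and 14 UMIs, while empty droplets held between 0.36 and 1.98 CPM. That was 4.28 ± 0.51 above the other classes and 4.01 ± 0.61 above the empty droplets on the log2 scale (edgeR adjusted p = 7.3e-10 and 3.7e-06). Heyl passed the filter on low counts mainly through pericyte-like and fibroblast-like sums in the first test, and through pericyte-like sums in the second. A lower call of these classes was therefore not open, and the tests are not separate support for the levels. Adventitial fibroblast-like nuclei, at 0, 24.1, 29.8 and 29.0 CPM, and alveolar fibroblast-like nuclei, at 7.47, 8.23, 12.3 and 9.61 CPM, exceeded the other classes by 4.13 and 2.95. Pericyte-like and adventitial fibroblast-like levels overlapped between mice, and so did those of the 2 fibroblast classes. Lymphatic EC-like nuclei held no Heyl UMI in any mouse, which allows up to 2.13 CPM.

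Nrarp, an ankyrin-repeat protein that blocks the Notch complex as feedback (chromosome 2, 25180758 to 25183339, plus strand), was called in 1 class. Club-like nuclei held 9.07, 7.57, 7.31 and 9.41 CPM, 0.90 ± 0.24 above the other classes (edgeR adjusted p = 0.0013), yet below the empty droplets at 13.1, 10.8, 9.68 and 10.3 CPM in every mouse. EC-like nuclei, at 12.8, 6.22, 4.73 and 7.36 CPM, gave 0.59 (edgeR adjusted p = 0.053). Pericyte-like nuclei ranged from 4.72 to 39.2 CPM over only 12 UMIs and gave 1.46 (edgeR adjusted p = 0.088).

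**Figure D1:**
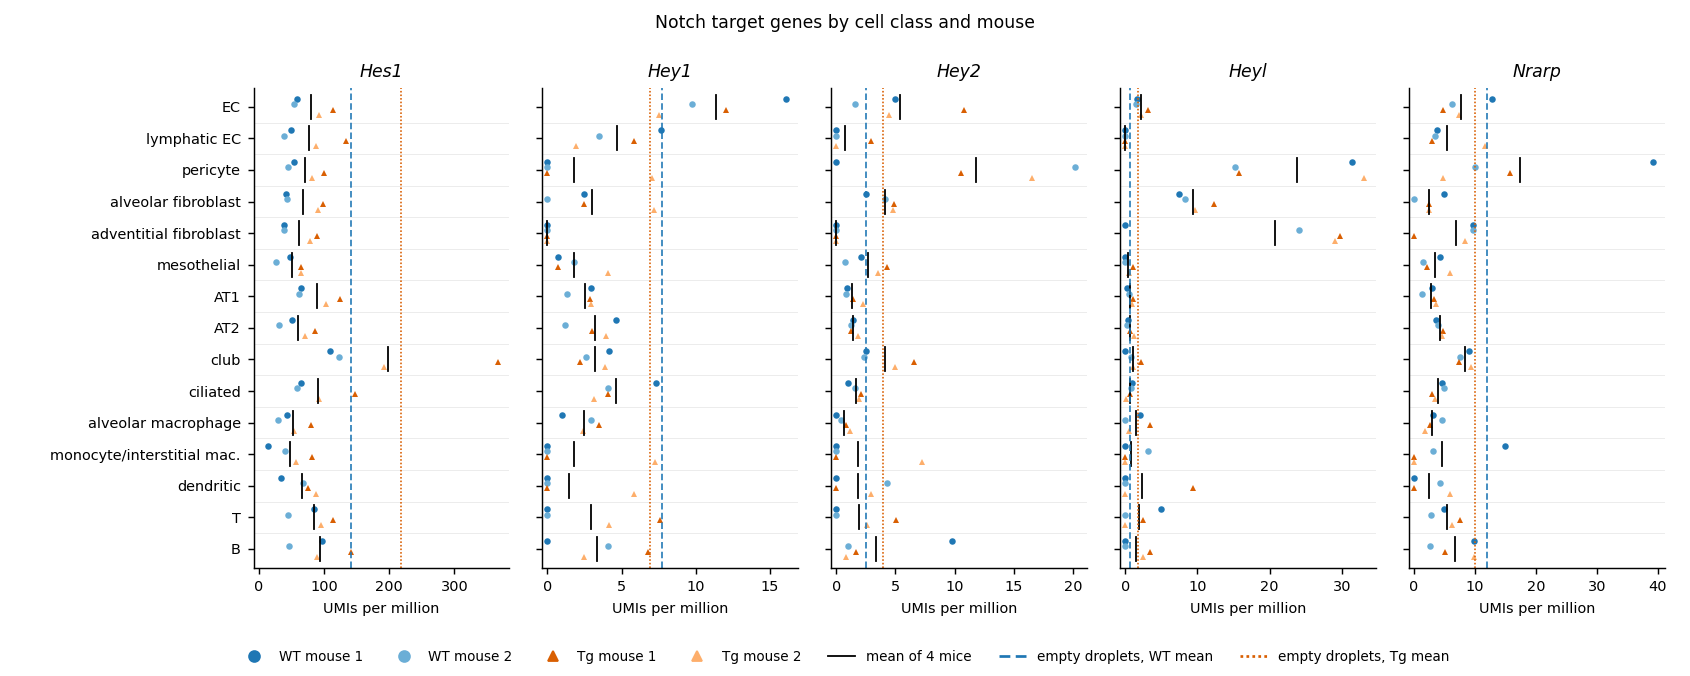
CPM of the 5 target genes (horizontal axes) in the 15 cell classes (rows), with a point for each mouse, a black bar for the mean of the 4 mice and vertical lines for the empty droplets of WT and Tg mice. Heyl stands above the lines in pericytes and fibroblasts and Hey1 in ECs, while Hes1 lies below them in all classes but club cells.

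Of the cofactors, Rbpj, the DNA-binding core of the Notch complex (chromosome 5, 53466152 to 53657362, plus strand), was highest in 3 of the leukocyte classes. Monocyte and interstitial macrophage-like nuclei held 5332, 2459, 2497 and 2642 CPM and dendritic-like nuclei 1936.5, 1031, 1942 and 1786 CPM, and no mouse of either class reached down to any mouse of the class next in order. T-like nuclei followed at 829, 662, 194 and 529 CPM, and the 12 remaining classes had means between 131 and 222 CPM that overlapped from neighbour to neighbour. The differences from the other classes were 3.53 ± 0.11, 2.70 ± 0.12 and 0.91 ± 0.12 on the log2 scale (edgeR adjusted p = 1.5e-37, 1.8e-29 and 7.1e-09). The leukocytes of the B-like (-0.50) and alveolar macrophage-like (-0.87) classes were lower. These were also the 3 classes above the empty droplets, which held 304, 278, 91.2 and 164 CPM, by 3.87, 2.98 and 1.23. EC-like nuclei, at 291, 226, 106 and 195 CPM, lay 0.50 below the other classes (edgeR adjusted p = 0.0010), and 0.02 from the empty droplets (edgeR adjusted p = 0.94). The mean of the other classes holds the 3 high leukocyte classes, which bears on each lower call of Rbpj. EC-like nuclei are among the 12 remaining classes, and the call does not set them below the rest of those. The leukocyte levels rest on 113 and 156 nuclei of the first 2 classes. Thinned to 1500 UMIs each, 81.5% ± 5.9 (SD, n = 4) of the monocyte and interstitial macrophage-like nuclei and 77.1% ± 1.6 of the dendritic-like nuclei carried an Rbpj UMI, beside 17.2% ± 5.8 of AT1-like nuclei. Without thinning the shares were 91.9%, 94.3% and 42.5%.

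Maml2, a Mastermind coactivator (chromosome 9, 13297957 to 13709388, plus strand), was highest in fibroblasts. Adventitial fibroblast-like nuclei held 2297, 1504, 1169 and 1588 CPM and alveolar fibroblast-like nuclei 2083, 1782, 1196 and 1338 CPM, and these classes overlapped with each other and with T-like nuclei (1319, 1280.5, 996 and 1022 CPM), the next in order. They exceeded the others by 0.83 ± 0.09 and 1.02 ± 0.08 (edgeR adjusted p = 8.1e-12 and 1.4e-17). T-like and ciliated-like nuclei were higher by 0.28 and 0.25, and AT2-like (-0.92), dendritic-like (-0.84), monocyte and interstitial macrophage-like (-0.82) and AT1-like (-0.22) nuclei were lower. By the test Maml2 was higher than in the empty droplets, at 746, 535, 131 and 223 CPM, in 15 of 15 classes, and in 13 of them every mouse lay above its own. The exceptions were AT2-like nuclei of WT1 and WT2 (627 and 460.02 CPM) and dendritic-like nuclei of WT1 (740.4 CPM). With barcodes of 50 to 200 UMIs as empty droplets, which held 11, 12, 3 and 11 Maml2 UMIs in all, the sign turned in monocyte and interstitial macrophage-like (-0.33) and dendritic-like nuclei (-0.40). The EC-like nuclei held 1255, 1057, 848 and 926 CPM (1.61 ± 0.26, edgeR adjusted p = 0.00032).

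Maml3, a related coactivator (chromosome 3, 51685907 to 52105076, minus strand), had a different order. AT2-like nuclei, the surfactant-making cells of the alveolus, held 1635, 1495.5, 1129 and 1317 CPM, alveolar fibroblast-like nuclei 1724, 1336, 1211 and 1146 CPM, and pericyte-like nuclei 1419, 1135, 931 and 1095 CPM. The 3 classes overlapped with each other and not with the class next in order, ciliated-like nuclei, and exceeded the other classes by 1.51, 1.48 and 1.06 (edgeR adjusted p between 2.0e-26 and 3.7e-14). AT1-like nuclei were lowest, at 293, 262, 175 and 298 CPM (-0.95 ± 0.10). The 2 alveolar epithelial classes thus stood at the top and the bottom of the order for this gene. In EC-like nuclei Maml3 was read at 713, 648, 418 and 540 CPM, above the empty droplets (637, 478, 140.3 and 207 CPM) by 0.88 and at the mean of the other classes (0.01, edgeR adjusted p = 0.98). Rbpj, Maml2 and Maml3 span 191211, 411432 and 419170 bases with exons over 6.67%, 1.60% and 2.50% of them, so in nuclear RNA counted with introns most of their possible positions are intronic. The files do not show whether an UMI came from an intron or from one of the 15 annotated genes that overlap Maml3 or the 5 that overlap Maml2.

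The fringe enzymes, Lfng (chromosome 5, 140607320 to 140615545, plus strand) and Mfng (chromosome 15, 78755882 to 78773475, minus strand), were both higher in EC-like and T-like nuclei than in the other classes. Mfng was read at 9.48, 15.2, 17.4 and 15.04 CPM in EC-like nuclei, 19.98, 18.6, 10.1 and 16.0 CPM in T-like nuclei and 0, 11.2, 21.9 and 13.1 CPM in B-like nuclei. These classes exceeded the others by 2.14 ± 0.18, 2.10 ± 0.28 and 1.90 ± 0.27 (edgeR adjusted p = 4.9e-16, 6.7e-09 and 6.9e-08) and the empty droplets, at 2.88 to 6.16 CPM, by 1.58, 1.49 and 1.36. In AT1-like, AT2-like, ciliated-like, club-like and mesothelial-like nuclei Mfng was lower than in the empty droplets, by -1.02 to -1.30. Lfng was likewise higher in T-like (1.03 ± 0.19), EC-like (0.58 ± 0.14) and ciliated-like (0.39 ± 0.14) nuclei than in the others. Its levels were nevertheless below those of the empty droplets in 15 of 15 classes. T-like nuclei held 29.97, 51.6, 27.7 and 41.7 CPM and EC-like nuclei 15.3, 41.2, 19.6 and 28.5 CPM, beside 39.6, 78.5, 29.1 and 62.1 CPM in the empty droplets. WT2 and Tg2 were higher than WT1 and Tg1 in these 3 series of values, whichever the genotype.

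**Figure D2:**
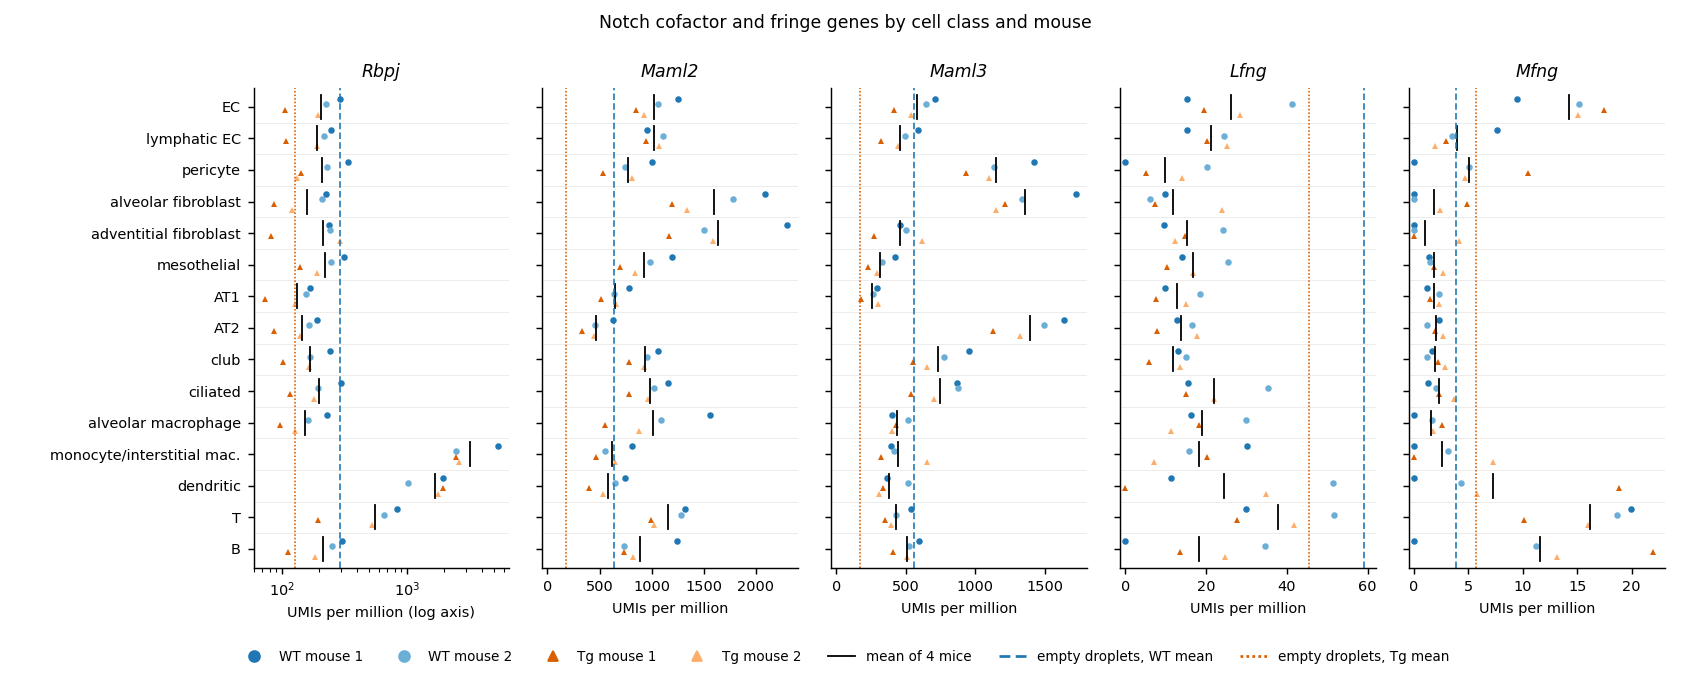
CPM of the 3 cofactors and 2 fringe enzymes (horizontal axes, logarithmic where marked) in the 15 cell classes (rows), drawn as for the targets. Rbpj is set apart in monocytes and interstitial macrophages and in dendritic cells, Maml2 is highest in fibroblasts with overlap to the next classes, Maml3 is highest in AT2 cells, alveolar fibroblasts and pericytes, and Lfng lies below the lines of the empty droplets.

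Against the empty droplets, 114 pairs over the 15 classes were tested, of which 31 were higher and 49 lower, beside 22.2% and 28.4% of all genes tested. Of the 31, 15 were Maml2, 8 were Maml3, Rbpj and Mfng gave 3 each, and Hey1 and Heyl gave 1 each. Heyl passed the filter only with pericyte-like nuclei, through their own sums, so no lower call was open to it. Hes1 gave 14 and Lfng 15 of the pairs that were lower, and Nrarp gave 8 and Mfng 5. Without the filter, Heyl was also above the empty droplets in adventitial and alveolar fibroblast-like nuclei, by 3.75 and 2.86.

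Within the endothelium, part of the 4271 EC-like nuclei were given to general capillary (1965 nuclei), aerocyte (387), arterial (441) and venous (452) subclasses. Of 24 pairs tested, 2 were higher and 3 lower, beside 7.32% of all genes called in either direction. Rbpj was higher in the arterial subclass, at 607, 257, 180.0 and 183 CPM, and lower in the venous subclass, at 199, 175, 81.5 and 114 CPM (0.74 ± 0.14 and -0.67 ± 0.16 on the log2 scale, edgeR adjusted p = 0.00095 and 0.0054). In each mouse the arterial value exceeded the venous one. Against the empty droplets, at 304, 278, 91.2 and 164 CPM, the arterial subclass differed by 0.49 and the venous by -0.52 (edgeR adjusted p = 0.048 and 0.034). Arterial WT2 and every venous value lay below the empty droplets of the same mouse. Maml3 was higher in aerocytes, the thin capillary cells of gas exchange, at 1182, 755, 571 and 725 CPM (0.59 ± 0.10), and lower in the arterial subclass (-0.37 ± 0.10). Maml2 was lower in aerocytes (-0.29 ± 0.08). Mfng was read at 7.58, 21.05, 31.7 and 26.0 CPM in aerocytes and did not pass the test (0.80, edgeR adjusted p = 0.088).

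The HEY genes were too scarce for this filter. Without it, Hey2 was higher in the arterial subclass, at 11.2, 7.03, 23.4 and 18.5 CPM (1.93 ± 0.42, edgeR adjusted p = 0.00050), and stood 2.07 above the empty droplets. Hey1 was higher in general capillary nuclei, at 25.9, 13.7, 13.9 and 8.99 CPM (1.27 ± 0.30, edgeR adjusted p = 0.0017), and every mouse was above its own empty droplets there (1.04 ± 0.25, edgeR adjusted p = 0.0043). The arterial level of Hey2 rests on 32 UMIs and the capillary level of Hey1 on 101. In thinned nuclei, 1.51% ± 1.23 (SD, n = 4) of the arterial subclass carried a Hey2 UMI and 2.36% ± 1.17 of general capillary nuclei a Hey1 UMI, against 0.43% ± 0.14 of AT1-like nuclei for Hey1.

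**Figure D3:**
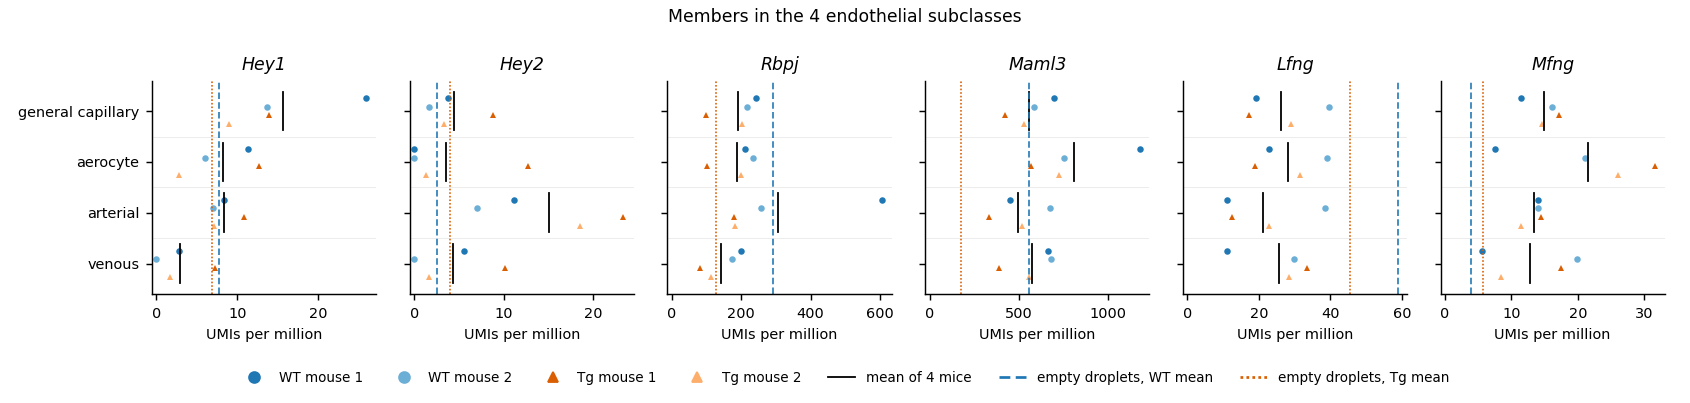
CPM of Hey1, Hey2, Rbpj, Maml3, Lfng and Mfng (horizontal axes) in the 4 endothelial subclasses (rows), with a point for each mouse, a black bar for the mean of the 4 mice and lines for the empty droplets of each genotype. Hey1 is highest in general capillary nuclei and Hey2 and Rbpj in arterial nuclei, with mice that overlap between subclasses.

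The genotypes were then compared within each class. Of the 150 pairs of member and class, 84 passed the filter. Of these 2 were higher and 0 lower in Tg mice, beside 5.53% higher and 0.667% lower among all genes tested. An unadjusted p under 0.05 was found for 31 pairs, 13 of them higher and 18 lower, and DESeq2 called 3. The shares of all genes hold for the edgeR calls. None is given for DESeq2 or for unadjusted counts, here or below. Those counts therefore do not show whether members differed more often than other genes. In the 4 EC subclasses 23 pairs were tested and 1 was higher, beside 4.56% of all genes. All 3 pairs were of Hes1.

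Hes1 in club-like nuclei was 2.34-fold higher in Tg mice, with the levels given above and no overlap between genotypes (log2 fold change 1.23 ± 0.29, edgeR adjusted p = 0.039). Without Tg1, the highest mouse, the difference was 0.65 (edgeR adjusted p = 0.10), and without WT1 it was 1.14 (edgeR adjusted p = 0.080). The call was also lost at 3000 UMIs (1.21), with whole-profile classes (1.24) and with stricter markers (1.18). AT2-like nuclei held 51.5 and 31.1 CPM in WT and 86.6 and 71.4 CPM in Tg mice (0.94 ± 0.26, edgeR adjusted p = 0.049989), at the threshold itself, and the call was lost without WT2 (0.58), without Tg1 (0.75) and with DESeq2. General capillary nuclei held 54.6 and 54.9 CPM against 113 and 99.6 CPM (0.95 ± 0.21, edgeR adjusted p = 0.031). That call was lost with DESeq2 (adjusted p = 0.10), without WT2 (0.90), Tg1 (0.82) or Tg2 (1.08), at 3000 UMIs, with whole-profile classes and with stricter markers. In the EC-like class as a whole Hes1 differed by 0.84 ± 0.20 (edgeR adjusted p = 0.056), beside 6.44% of genes called in these nuclei. Pericyte-like nuclei gave 0.99 ± 0.45 (edgeR adjusted p = 0.31), beside 4.11% of genes called.

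The same direction was found for Hes1 wherever it was tested. In 14 of 14 classes the Tg value was higher, by 0.66 to 1.41 on the log2 scale, and in 14 of the 15 classes both Tg mice lay above both WT mice. How many of all genes had such an order was not counted, here or for the members below. The classes also share libraries and free RNA, so they are not separate observations. Empty droplets differed by 0.88 ± 0.26 (edgeR adjusted p = 0.051), within the range of the classes, and the Tg mice were above the WT mice there too. These differences include edgeR's scaling of the libraries. By CPM the droplets held 157 and 125 in WT and 217 and 221 in Tg mice, a smaller ratio of means than in any of the 15 classes. Other RNA moved with genotype in these droplets. The club cell secretoglobin Scgb1a1 was read at 15011 and 15673 CPM in WT and 128050 and 43359 CPM in Tg mice, and the AT2 surfactant gene Sftpc at 1092 and 2454 CPM against 15627 and 12937 CPM. The 7 genes of the club marker list, which does not hold Scgb1a1, summed to 2542 and 2106 CPM against 2827 and 2363 CPM and overlapped, with 2 of them higher and 4 lower in both Tg mice. The 8 genes of the AT2 marker list, which does not hold Sftpc, summed to 3703 and 4082 CPM against 2212 and 3614 CPM. Of these, 1 was higher and 5 were lower in both Tg mice. The median mitochondrial share of barcodes with 1500 or more UMIs was 0.071% and 0.14% in WT and 0.32% and 0.39% in Tg mice. The part of these shifts in the Hes1 differences was not tested. The share of the class differences that the free RNA carries cannot be told apart by these sums. When the profile of the empty droplets was subtracted, Hes1 could be tested only in club-like nuclei (1.43, edgeR adjusted p = 0.36). In thinned club-like nuclei 15.002% and 15.7% carried a Hes1 UMI in WT and 35.2% and 24.0% in Tg mice. This difference of 14.2 percentage points had the exact permutation p = 0.33 (two-sided), the smallest that 2 mice against 2 can give. It was 8.61 percentage points without Tg1 and 19.85 without Tg2.

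The other targets passed the filter in few classes and were not called. Hey1 gave -0.44 ± 0.41 and Hey2 1.18 ± 0.69 in EC-like nuclei (edgeR adjusted p = 0.52 and 0.31), where WT and Tg mice overlapped for both. Both Tg mice were above both WT mice for Hey2 in 7 of the 15 classes and in the empty droplets, which held 2.70 and 2.38 CPM in WT and 2.78 and 5.13 CPM in Tg mice. Some of the 7 rest on few UMIs, as in T-like nuclei with 0, 0, 2 and 5 in WT1, WT2, Tg1 and Tg2. Club-like nuclei were one of the 7, at 2.47 and 2.33 CPM in WT and 6.58 and 4.97 CPM in Tg mice (1.18 ± 0.59, edgeR adjusted p = 0.24), and the arterial subclass had the same order at the levels given above (without the filter 1.18 ± 0.69, edgeR adjusted p = 0.52). Nrarp gave -0.67 ± 0.47 in EC-like nuclei (edgeR adjusted p = 0.39). Heyl did not pass the filter in any class. In pericyte-like nuclei its WT and Tg values overlapped, and without the filter it gave 0.40 ± 0.71 there (edgeR adjusted p = 0.88) and was called in none of the 14 classes tested, with an unadjusted p under 0.05 in B-like nuclei. Both Tg mice were above both WT mice for Heyl in 8 of the 15 classes and below them in 1. Some of these orders rest on few UMIs, as in mesothelial-like nuclei with 0, 0, 3 and 3 in WT1, WT2, Tg1 and Tg2. In the empty droplets they were above them too, at 0.36 and 1.12 CPM in WT and 1.98 and 1.54 CPM in Tg mice (without the filter 1.52 ± 0.79, edgeR adjusted p = 0.16).

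The cofactors were lower in most classes of Tg mice without passing the adjustment. Rbpj was lower in 14 of 15 classes and both Tg mice lay below both WT mice in 12. The differences were -0.82 ± 0.30 in EC-like nuclei (edgeR adjusted p = 0.14) and -0.89 ± 0.31 in pericyte-like nuclei (edgeR adjusted p = 0.17), and 11 classes had an unadjusted p under 0.05. Without the filter Rbpj was lower past the threshold in 8 classes, EC-like nuclei among them (-0.80, edgeR adjusted p = 0.0051), as was Maml2 in alveolar macrophage-like nuclei (-0.91, edgeR adjusted p = 0.014), while Hes1 was higher in 8, beside 1.59% of genes lower and 5.05% higher without it. Maml2 was lower in 14 of 15 classes and Maml3 in 13, with both Tg mice below both WT mice in 9 and 11, and with differences of -0.41 ± 0.21 and -0.54 ± 0.21 in EC-like nuclei (edgeR adjusted p = 0.25 and 0.15). In the empty droplets all 3 were lower past the threshold, Rbpj by -0.997 ± 0.28, Maml2 by -1.65 ± 0.34 and Maml3 by -1.47 ± 0.31 (edgeR adjusted p = 0.045, 0.023 and 0.024), beside 11.0% of all genes. These calls were lost without Tg1 (-0.74, -1.43 and -1.33) or Tg2 (-1.30, -1.92 and -1.61), and that of Rbpj without WT1 (-0.93). The median over all genes in empty droplets was 0.04, and -0.22 when scaled by total UMIs. Gm42418, a gene that overlaps ribosomal RNA, moved the same way there, from 32399 and 28476 CPM in WT to 15236 and 8708 CPM in Tg mice, and the nuclear RNA Malat1 the other way, from 30803 and 30177 CPM to 49093 and 44074 CPM. The part of the free RNA, and of the mitochondrial shares given above, in the lower cofactor levels of nuclei was not tested. Lfng was negative in 9 of the 9 classes tested and Mfng positive in 3 of 4, with adjusted p values of 0.33 or more. WT and Tg mice overlapped for Lfng in each of the 15 classes. For Mfng both Tg mice lay above both WT mice in 7 classes and below them in 2. Here too some orders rest on few UMIs, as in alveolar fibroblast-like nuclei with 0, 0, 2 and 1 in WT1, WT2, Tg1 and Tg2.

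Whether a change differed between classes was tested by an interaction, over 135 pairs. One was called, beside 0.108% of all genes tested. Rbpj in dendritic-like nuclei changed by 1.16 ± 0.21 more on the log2 scale than in the other classes (edgeR adjusted p = 0.0047). Its values of 1936.5 and 1031 CPM in WT and 1942 and 1786 CPM in Tg mice overlapped (0.50 ± 0.31, edgeR adjusted p = 0.49). The estimates of the other classes were lower in Tg mice, none past the threshold. The call was lost without WT2, without Tg1, or with the mixed nuclei kept, and the class held 23, 29, 31 and 73 nuclei. For Hes1 the interaction ranged from -0.37 to 0.42 over the classes, with 0.19 ± 0.14 in club-like and -0.06 ± 0.16 in EC-like nuclei, and none passed (edgeR adjusted p of 0.91 or more).

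**Figure D4:**
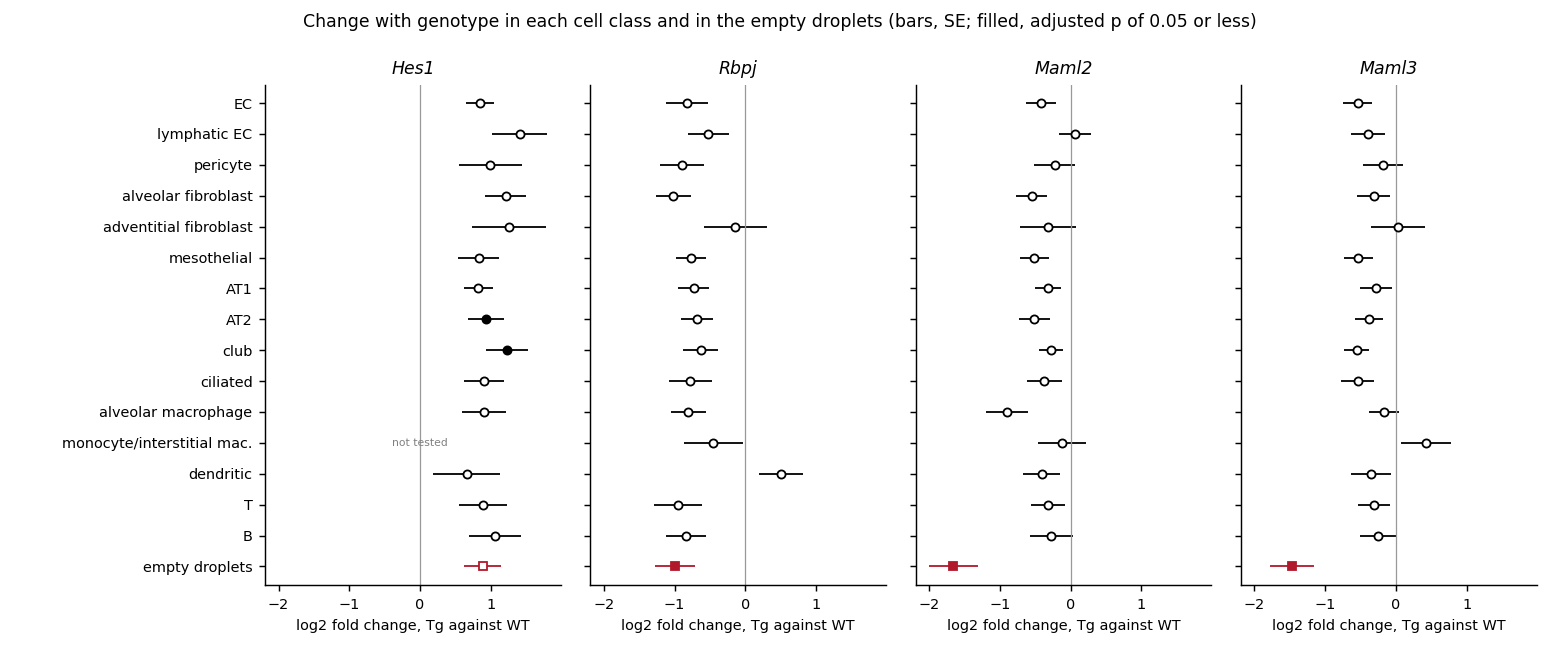
Log2 fold change of Tg against WT mice (horizontal axes) for Hes1, Rbpj, Maml2 and Maml3 in each cell class and in the empty droplets (rows). Points are edgeR estimates with bars of 1 SE, filled where the adjusted p was 0.05 or less. Hes1 lies to the right and Rbpj, Maml2 and Maml3 to the left of 0 in most classes and in the empty droplets, apart from Rbpj in dendritic nuclei.

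The rest of the pathway was read from a list of 56 further genes. Over the 15 classes pooled, 14.7% of all genes were higher than in the other classes and 11.9% lower. Such shares are not given for EC-like or pericyte-like nuclei alone. The counts of these 2 classes thus do not show more calls than among other genes there. In EC-like nuclei 12 of the 48 listed genes tested were higher than in the other classes and 3 lower. The higher ones included the receptors Notch4 (3.09) and Notch1 (0.84), the ligands Dll4 (2.18) and Jag2 (2.12) and the endocytic Notch inhibitor Numb (1.31). The lower ones were the receptor Notch2 (-0.75), the corepressor Tle3 (-0.43) and Dtx4 (-0.46). Pericyte-like nuclei were higher in 3 of 48, the mural receptor Notch3 (5.94, at 839, 621, 815 and 668 CPM), Notch1 (1.01) and Dtx3 (0.98). Notch1 was read there at 165, 30.3, 121 and 89.7 CPM, and WT2 lay below its own empty droplets (87.1 CPM). EC-like nuclei of WT2, at 78.9 CPM of Notch1, lay below them too. Between genotypes, 0 of 48 were called in EC-like nuclei and 0 of 26 in pericyte-like nuclei by edgeR, beside the 6.44% and 4.11% of all genes. DESeq2 called 1 and 0, and 12 and 3 had an unadjusted p under 0.05, without a share of all genes to set beside them. In general capillary nuclei 1 of 45 was called, the corepressor Tle1 (-0.87 ± 0.21, edgeR adjusted p = 0.044), beside 0.7% of all genes lower there. Empty droplets gave 2 higher and 7 lower of 51, beside 14.5% and 11.0% of all genes, with Tle1 among the lower (-1.18 ± 0.25).

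Genes whose levels ran most alike with a member over the 15 classes were found by Pearson's r of log2 CPM among 15129 genes. These points share libraries, depth and free RNA, and the values are descriptions. Hes1 ran with Itprid1 (0.93), Lypd6 and Fer1l6, all highest in club-like nuclei. Heyl ran with Aspn, the endothelin receptor gene Ednra (0.91 each) and Egflam (0.90), and Rbpj with the chemokine receptor gene Ccr2 (0.95), itself a marker of the class, Asb2 and Timd4. Hey1 was most like Stmn2 (0.90), Mest and Cfd, Hey2 like Dhodh (0.84), Zfp61 and Mios, and Nrarp like Mrpl30 (0.86), Mdh1 and Capn5. Maml2 was most like Fam227b (0.82), Ptgfr and Zfp607b, and Maml3 like Cdc42ep4 (0.85), Serpine2 and Cacna1c. Lfng ran with Car3 (0.88), Ss18 and Fryl and Mfng with Actg1 (0.92), H2-Q7 and Chchd2. Among the members themselves the most alike pair was Lfng and Mfng (0.64), and Maml2 and Maml3 gave 0.04.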

How the data were processed

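The authors deposited, per the labels, unfiltered UMI counts per gene and barcode from 10x libraries, made with Cell Ranger 6.1.1 on mm10 (the matrix header names another release). The study's methods state that introns were counted. Its later filters, removal of ambient RNA and batch correction are not in these counts. Depth is in the report, and levels of rare genes rest on few UMIs, so counting error is large there.

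Barcodes with 1500 or more UMIs were given to the class whose markers were most in excess of the free RNA of that mouse (Poisson p of 1e-06 or less, 3 or more markers seen), and to an EC subclass at p of 0.01 or less. A barcode whose excess for a further class reached 30% of that class's own median excess was left out, and no doublet caller was run. UMIs were summed per mouse and class and tested with edgeR 4.0.16 (R 4.3.3; TMM, filterByExpr with a minimum count of 10, threshold 0.05), and DESeq2 1.42.0 served as an alternative. Class comparisons had the mouse as a term. No term stood for replicate numbers, since 2 pairs do not show that they pair mice (correlation of same-numbered deviations 0.35 over named nuclei and 0.09 over empty droplets). Which of these mice shared a cage or batch is not given in the sources used here. The p-values of the genotype fits measure the spread between these mice. Those of the fits with the mouse as a term measure what remains once the level of each mouse is taken out. In the comparisons with other classes and in the interaction this remainder was pooled over all classes fitted. Shares of nuclei with a UMI were thinned to 1500 UMIs and compared with an exact permutation test. Scripts were tested on simulated data. Members are named in full, with the 3 genes most like each over the classes (at least 200 UMIs) and at most 5 pathway genes per direction past the threshold in ECs or pericytes. The members and lists were chosen with earlier results of these data known. Alternatives covered the UMI minimum, marker cut, mixed nuclei, whole-profile classes, subtraction of free RNA, filter, scaling, a replicate block, droplets used as empty and each mouse left out.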

Additional observations from a re-analysis of the deposited data

Results flagged for a closer look

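The change of Rbpj with genotype in dendritic-like nuclei differed from that in the other classes by 1.16 on the log2 scale in the interaction test (edgeR adjusted p = 0.0047). It was the only one of the 135 pairs of member and class past the threshold. Its WT and Tg values overlapped within the class. The estimates of Rbpj in the other 14 classes were lower in Tg mice, none past the threshold. In 12 of these classes both Tg mice lay below both WT mice. No member's groups of mice were large enough for a search for outlying samples.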

How the results depend on the processing

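Of 63 pairs called against other classes, 37 kept direction and call in every alternative run, and of 102 called against empty droplets, 54 did. The 6 genotype calls (empty droplets included) kept their direction in all 64 values and lost the call in 25. Pairs called with genotype (2 in classes) became 1 at 1000 UMIs, 1 with whole-profile classes, 0 with free RNA subtracted, 17 with no filter and 4 with total UMI scaling, and 0 without Tg1 to 14 without WT2 when mice were left out. In EC subclasses (1) they became 0 at 3000 UMIs, with whole profiles, stricter markers, free RNA subtracted and DESeq2, 2 with no filter, and 0 to 4 without single mice. With the replicate number as a block they were 12 and 2, while Hes1 in ECs passed (0.84) and Rbpj in empty droplets lost its call (-1.02). Hes1 in ECs also passed with no filter (0.86), total UMI scaling (0.87) and without WT1 (0.94), with 0.67 to 1.02 over mice left out. Hes1 in pericytes gave 0.83 to 1.25. The interaction count was 0 with mixed nuclei kept, 2 with whole profiles and 0 to 1 over mice left out. Calls against other classes fell to 15 lower pairs with free RNA subtracted, to 3 in EC subclasses with stricter markers and to 2 to 5 there without single mice. Rbpj in B-like nuclei reversed with whole profiles (0.40).

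With droplets of 50 to 200 UMIs as empty, which numbered 103 to 170 per mouse, calls fell to 18 higher, 0 lower and 1 in subclasses. Reversed were Lfng in ECs (8.72), AT1 (8.08) and ciliated cells (8.53), fitted against droplets with 0 Lfng UMIs in every mouse, and Hes1 in ECs (0.96), lymphatic ECs (0.15), alveolar fibroblasts (0.44), mesothelial cells (0.27), AT1 (1.28), AT2 (0.63), ciliated cells (1.25), alveolar macrophages (0.17), T cells (0.26), general capillary (0.79) and arterial ECs (0.21). So were Maml2 in monocytes and interstitial macrophages (-0.33) and dendritic cells (-0.40), and Maml3 in B cells (-0.22) and arterial ECs (-0.019). The cause was not tested.

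Shares of nuclei with a UMI, Tg minus WT in percentage points, reversed for Hey2 in pericytes with mixed nuclei kept (-0.23, from 0.80) and for Heyl there without thinning (-2.46, from 0.51). Over mice left out they ranged from -1.07 to 0.22 for Hey1 in ECs, -0.84 to 2.44 for Hey2, -0.46 to 1.47 for Heyl and -4.59 to 1.06 for Nrarp in pericytes, -7.26 to 1.11 for Maml2 in adventitial fibroblasts and -3.06 to 0.37 for Lfng in T cells. Monocytes and interstitial macrophages could not be fitted with whole profiles, where WT1 had 0 nuclei. A profile needed 20 marker-defined nuclei in the mouse, and WT1 had 14 of this class. In that run such nuclei of WT1 could only go to other classes or to the empty droplets, also where Rbpj in B-like nuclei reversed. With 2 mice a genotype, 1 mouse can decide a call.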

Other observations

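Classes with fewer than 5 nuclei in some mouse were left out of all tests, and the smooth muscle-like class is the one of most interest for Notch in vessels. Its 24 nuclei (6, 1, 10 and 7 in WT1, WT2, Tg1 and Tg2) held 123540 UMIs, of which 4 were Heyl, 2 Hey2, 1 Hey1 and 9 Hes1. The cofactors gave 19 UMIs of Rbpj, 162 of Maml2 and 86 of Maml3, and no UMI of Nrarp, Lfng or Mfng was seen. NK-like nuclei, 42 in all with 0 in WT1, held 3 UMIs of Mfng and 9 of Lfng. A class called highest above is so among the 15 compared classes. Pooled over mice, some class left out exceeded that mean for Hes1, Hey1, Hey2, Heyl, Lfng and Mfng. Examples are Heyl at 32.4 CPM in smooth muscle-like nuclei and Hes1 at 204 CPM in 23 cardiac muscle-like nuclei. No class left out did so for Nrarp, Rbpj, Maml2 or Maml3.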
